A study of Mus musculus with 6 samples.

Results

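Polycomb group and trithorax group genes were followed in mouse embryonic stem (ES) cells, pluripotent cells derived from the early embryo, after an siRNA against BRG1. The members were taken by array gene name: 38 listed symbols, of which 37 were found, and any name of the Mll, Kmt2 or Pcgf form, which added Mll1, Mll3 and Mll5. That gave 40 of the 27962 gene names on the array and 87 of its 41174 probes, of which 10 genes belong to Polycomb repressive complex 2 (PRC2), 19 to PRC1, 8 to the trithorax side and 3 (Epc1, Asxl1, Asxl2) to neither complex. One group of 3 samples received control (scrambled) siRNA and the other group of 3 received BRG1 siRNA, both for 48 h. All cells were cultured ES cells of 1 genetic background, an F1 of 129 and C57BL/6, and Cy3-labelled cRNA (made from 500 ng RNA) was read on Agilent arrays of 1 colour. BRG1, encoded by Smarca4, is an ATPase of the SWI/SNF complexes, which remodel nucleosomes; siRNA lowers its mRNA without removing the gene. Whether the replicates were grown as separate cultures is not stated in the labels; each p-value thus rests on array-to-array spread that could be technical alone.

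Polycomb proteins keep developmental genes silent, and trithorax proteins oppose them. PRC2 methylates lysine 27 of histone H3 through Ezh1 or Ezh2, and PRC1 ubiquitinates histone H2A through Ring1 or Rnf2 (Ring1B), each paired with a Pcgf protein that sets the type of complex. The trithorax side methylates lysine 4 of histone H3 through the MLL/Kmt2 enzymes and a shared core of Wdr5, Rbbp5, Ash2l and Dpy30; in ES cells both marks meet at the promoters of silent lineage genes.

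PRC1 held most of the called genes. Among its 18 genes tested, 8 rose after BRG1 siRNA (Bmi1, Scmh1, Pcgf2, Phc2, L3mbtl2, Pcgf1, Rybp, Rnf2) and 3 fell (Yaf2, Cbx6, Phc1), although with median or spike-in scaling no fall passed the threshold and Phc1 was above 0 with spike-in scaling. Of 10 PRC2 genes, Suz12 alone rose and 0 fell by limma (1 and 2 at an unadjusted p under 0.05), while spike-in scaling called 3 raised. Of 8 trithorax genes, Mll3, Rbbp5 and Mll1 rose and Mll5 fell, a fall not past the threshold with median or spike-in scaling. Of the 3 remaining members 0 passed, also at an unadjusted p under 0.05. Together 16 of 39 members were called (41.0%), 12 raised and 4 lowered, against 4139 of 17758 genes on the whole array (23.3%, with 9.87% raised and 13.4% lowered). Their median change was 0.09 on the log2 scale, beside -0.04 for all genes tested; by side it was -0.02 for PRC2, 0.16 for PRC1, 0.04 for the 3 others and 0.11 for trithorax. Every level here is log2 of the array signal minus the 75th percentile of that array, each gene is read from its brightest probe, and a gene is called when its limma p, adjusted over all genes tested, is under 0.05.

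**Figure D1:**
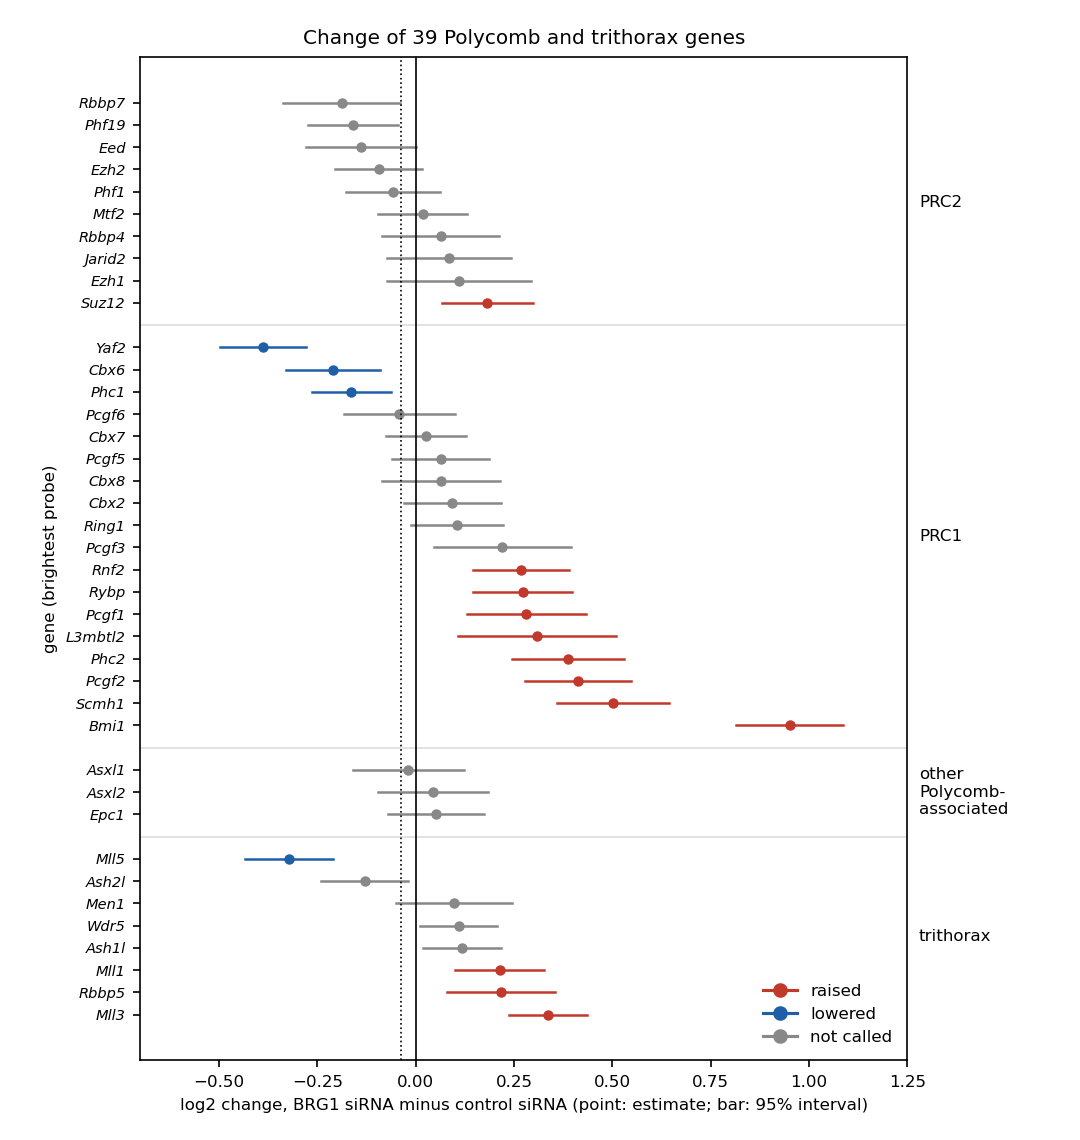
Change of each member after BRG1 siRNA on the log2 scale (points, 3 arrays against 3; bars, 95% intervals), grouped by complex, with red for raised, blue for lowered, grey for not called and a dotted line at the median of all genes tested (-0.04). The PRC1 genes spread from -0.39 (Yaf2) to 0.95 (Bmi1), while the PRC2 genes stay between -0.19 and 0.18; with spike-in scaling Phc1 turns above 0 and no member is lowered.

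The count depended on the scaling and on single arrays. With spike-in scaling, where the median over all genes was 0.16, 16 members were raised and 0 lowered (27 and 0 at an unadjusted p under 0.05), and 84.1% of all called genes were raised in place of 42.3%. Slide 1 carried the 3 controls and the first BRG1 siRNA replicate, and slide 2 carried the remaining pair. With slide as a block, the estimate for each gene equals the difference between that 1 BRG1 siRNA array and the 3 controls on slide 1, since slide 2 holds no control; slide 2 then adds to the estimate of the spread only. Every value below given with slide as a block is this contrast of 1 array with 3, not a second replicated comparison. It called 5 members (Bmi1, Scmh1, Pcgf2 and Mll3 raised, Yaf2 lowered) against 7.84% of all genes (2.69% raised and 5.15% lowered). Without control replicate 1, 8 members were called, beside 14.4% of all genes. Without control replicate 2 or 3, 7 were called, beside 10.3% and 9.19% of all genes. Without BRG1 siRNA replicate 1 or 2, 7 were called, beside 12.8% and 11% of all genes. Without BRG1 siRNA replicate 3 the count was 16, beside 24.8% of all genes. With all 6 arrays 23.3% of all genes were called. Cbx6, L3mbtl2, Mll1, Pcgf1, Phc1, Rbbp5, Rnf2 and Suz12 each lost their call without any 1 of those other arrays, as did Rybp except without control replicate 1, and Mll1 and Phc1 also lost it without BRG1 siRNA replicate 3. Across the whole array, 60.9% to 75.3% of spots were well above background. All 3 Smarca4 probes fell, by 0.60, 0.87 and 0.59 (limma adjusted p over probes = 0.00456, 0.00181 and 0.00862), with the brightest probe at 4.32, 4.36 and 4.23 in controls and 3.76, 3.74 and 3.60 after BRG1 siRNA. Of 11 ES cell markers tested 4 rose and 1 fell, and their mean log2 level ran from 4.11 to 4.16 in controls and from 4.22 to 4.29 after BRG1 siRNA. Of 14 fibroblast markers tested 2 rose and 8 fell, with mean log2 levels from -0.77 to -0.74 in controls and from -1.01 to -0.99 after BRG1 siRNA; of 6 primitive endoderm markers 0 rose and 1 fell, with mean log2 levels from -3.68 to -3.22 and from -3.58 to -3.41. No listed marker was at background on every array, and the part of other cells in the member changes was not tested; fewer cells of a type and less RNA per cell cannot be told apart in bulk RNA.

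Bmi1, a Pcgf protein of classical PRC1 (Pcgf4), had the largest change of all members. Its level was -3.21, -3.15 and -3.29 on the control arrays and -2.21, -2.26 and -2.32 after BRG1 siRNA. The groups lie apart by many times their spread, and each BRG1 siRNA array stands above every control. This is a rise of 0.95 ± 0.05 (SE, log2; n = 3 and 3), or 1.93-fold (limma adjusted p = 0.00114), and 1.00 with slide as a block (adjusted p = 0.0187). A second Bmi1 probe rose by 0.79 ± 0.10 (SE; adjusted p over probes = 0.00725). The pair lie on chromosome 2 at 18751519 to 18751578 (the brightest) and 18748838 to 18748897 of mm7, the build of the file headers, plus strand. Probes are placed by these coordinates only, since no mm7 gene models were used here.

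Pcgf2 (Mel18), the closest relative of Bmi1, stood at -2.35, -2.39 and -2.40 in controls and -1.93, -2.06 and -1.92 after BRG1 siRNA. The groups did not overlap, and the gain of 0.41 ± 0.05 (SE) was 1.33-fold (limma adjusted p = 0.00618). With slide as a block it was 0.46 (adjusted p = 0.0443). Pcgf1, the Pcgf protein of a variant PRC1 that carries Kdm2b and Bcor, went from -0.99, -0.82 and -0.89 to -0.55, -0.65 and -0.66, a rise of 0.28 ± 0.06 (SE; adjusted p = 0.0261). Its lowest BRG1 siRNA array still lay above its highest control, but with slide as a block the 0.35 did not pass (adjusted p = 0.0692). The remaining Pcgf genes did not pass the test: Pcgf3 gave 0.22 (adjusted p = 0.0756; called at 0.29 without BRG1 siRNA replicate 3, adjusted p = 0.0179), Pcgf5 gave 0.06 and Pcgf6 gave -0.04. Pcgf3 read -1.06, -0.997 and -1.08 against -0.76, -0.76 and -0.96, which are apart, but 2 other Pcgf3 probes gave 0.04 and -0.02.

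Scmh1, a homologue of the fly Polycomb protein Sex comb on midleg, rose from -1.76, -1.70 and -1.81 to -1.29, -1.17 and -1.31. The gap between groups was several times the spread within either, and the change was 0.50 ± 0.06 (SE), or 1.42-fold (limma adjusted p = 0.00428), and 0.47 with slide as a block (adjusted p = 0.0476). The probe lies on chromosome 4, and a second Scmh1 probe was not tested.

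Start-site sequences are shown for the raised genes that were also called with slide as a block, a choice made with their values known. They are the 250 bases before the RefSeq transcript start (GRCm38.p6 build), 5′ to 3′, with CpG dinucleotides in capitals. Bmi1 lies at chr2:18676768-18677017 on the plus strand, Pcgf2 at chr11:97699649-97699898 on the minus strand, Scmh1 at chr4:120405098-120405347 on the plus strand and Mll3 (RefSeq Kmt2c) at chr5:25498784-25499033 on the minus strand.
Bmi1: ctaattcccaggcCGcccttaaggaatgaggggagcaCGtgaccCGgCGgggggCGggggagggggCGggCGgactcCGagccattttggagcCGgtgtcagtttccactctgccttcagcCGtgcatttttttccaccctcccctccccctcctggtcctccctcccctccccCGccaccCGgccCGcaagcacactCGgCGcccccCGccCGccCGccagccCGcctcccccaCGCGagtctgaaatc
Pcgf2: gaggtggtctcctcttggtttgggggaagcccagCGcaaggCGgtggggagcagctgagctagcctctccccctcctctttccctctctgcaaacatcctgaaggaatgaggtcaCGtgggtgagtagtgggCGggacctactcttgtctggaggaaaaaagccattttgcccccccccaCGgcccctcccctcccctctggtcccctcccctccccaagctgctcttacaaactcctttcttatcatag
Scmh1: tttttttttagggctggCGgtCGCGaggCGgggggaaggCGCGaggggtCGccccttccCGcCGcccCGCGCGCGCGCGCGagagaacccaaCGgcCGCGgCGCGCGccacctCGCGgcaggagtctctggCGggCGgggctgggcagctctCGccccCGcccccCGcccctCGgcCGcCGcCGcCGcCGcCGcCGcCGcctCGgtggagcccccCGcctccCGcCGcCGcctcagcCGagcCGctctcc
Kmt2c: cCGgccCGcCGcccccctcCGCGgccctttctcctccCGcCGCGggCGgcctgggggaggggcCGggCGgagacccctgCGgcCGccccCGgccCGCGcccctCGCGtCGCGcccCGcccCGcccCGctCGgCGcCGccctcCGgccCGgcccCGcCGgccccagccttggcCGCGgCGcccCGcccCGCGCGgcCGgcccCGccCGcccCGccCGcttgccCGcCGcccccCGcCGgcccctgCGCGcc
These 4 windows do not share a CpG density: they hold 21, 5, 45 and 48 CpG, and a second Scmh1 start holds 0. Of the 40 members, 32 had a start in the RefSeq table, with 41 windows in all. Windows of the same gene can overlap, as those of Men1 do, and the untested Phc3 is among the members counted. The median member window had 20 CpG and 64.8% G and C, against 14 and 59.2% over the 14658 windows of genes tested. The GC box GGGCGG, searched on both strands, was in 73.2% of member windows and 54.5% of those of genes tested, and the E-box CACGTG, its own reverse complement, was in 17.1% and 8.04%. TATAAA on either strand was in 2.44% and 7.76%. Over all 32851 windows in the table the shares were 32.7% for GGGCGG, 6.02% for CACGTG and 12.4% for TATAAA. A match is a run of letters, not a bound site.

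**Figure D2:**
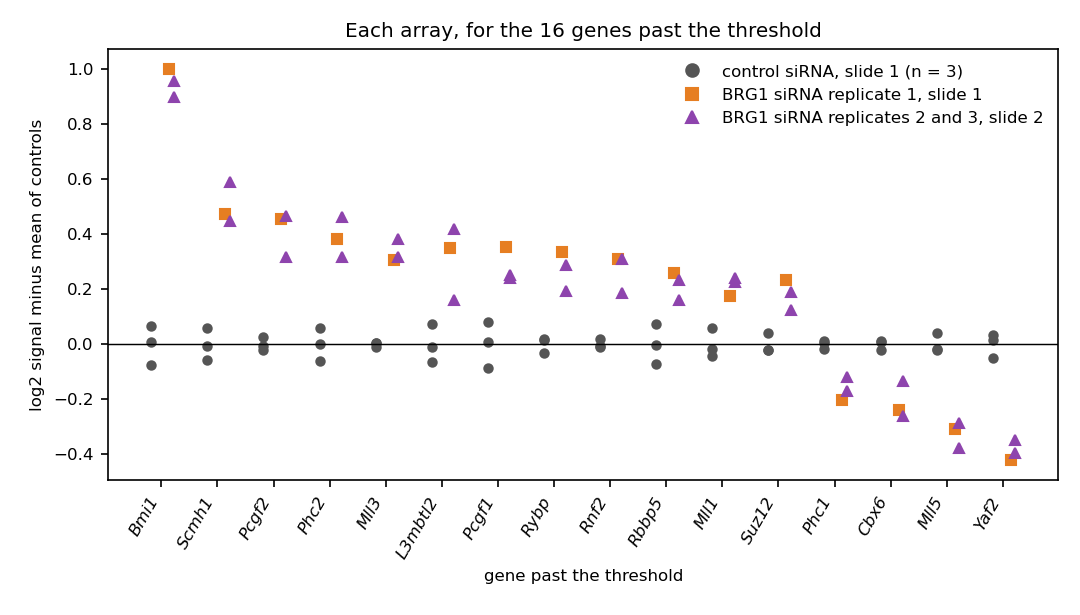
Each array's log2 signal minus the mean of the 3 controls for the 16 members past the threshold (grey circles, controls on slide 1; orange squares, BRG1 siRNA replicate 1 on slide 1; purple triangles, BRG1 siRNA replicates 2 and 3 on slide 2). In each of the 16 genes all 3 BRG1 siRNA arrays lie outside the control range on the same side, with Bmi1 highest and Yaf2 lowest. These genes were called on the same arrays, so the separation is no further support. Groups also did not overlap in 44% of all genes tested and in 10 of the 23 members tested but not called. Phc1 turns above 0 with spike-in scaling.

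Of the E3 ligases that ubiquitinate histone H2A, Rnf2 rose and Ring1 did not pass the test, except with spike-in scaling (0.30, adjusted p = 0.0406). Rnf2 read 2.75, 2.78 and 2.75 in controls and 3.07, 3.07 and 2.94 after BRG1 siRNA, so its groups were apart. The rise was 0.27 ± 0.05 (SE; limma adjusted p = 0.0161), and a second Rnf2 probe gave 0.10 (adjusted p over probes = 0.244). Ring1 read -1.61, -1.68 and -1.63 against -1.59, -1.48 and -1.53, which are close but do not overlap. Its change was 0.11 (95% interval -0.01 to 0.22, limma adjusted p = 0.164). A second Ring1 probe gave 0.15 (adjusted p over probes = 0.115), more than the second Rnf2 probe. The contrast of the genes thus rests on the brightest Rnf2 probe.

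Rybp and Yaf2 are homologues that occupy the same place in variant PRC1, and they moved in opposite directions, though with median scaling neither passed the threshold and with spike-in scaling Rybp alone did. Rybp went from 3.39, 3.38 and 3.34 to 3.70, 3.66 and 3.56, up by 0.27 ± 0.05 (SE; limma adjusted p = 0.0169). Yaf2 went from 1.51, 1.58 and 1.60 to 1.14, 1.21 and 1.17. Both sets of groups were apart, and Yaf2 fell by 0.39 on the log2 scale (SE 0.04), a 1.31-fold lower signal (adjusted p = 0.00428) and -0.19 with spike-in scaling (adjusted p = 0.189). With slide as a block Yaf2 was at -0.42 (adjusted p = 0.0374) and Rybp at 0.33 (adjusted p = 0.054). The second Rybp probe gave 0.07 (adjusted p over probes = 0.328), so the 2 Rybp probes differ in size. Yaf2 has 1 probe on the array, so its fall has no second probe beside it. The coordinates of the Yaf2 probe span 51 bases of genome for 60 bases of sequence. Within each array, the Rybp change minus the Yaf2 change ran from 0.59 to 0.75 after BRG1 siRNA and from -0.07 to 0.07 in controls, a mean difference of 0.66.

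That within-array difference does not depend on the scaling factor of an array. It was taken for 5 pairs of close relatives, each gene by its brightest probe. It was 0.66 for Rybp over Yaf2, 0.55 for Phc2 over Phc1, 0.25 for Rbbp4 over Rbbp7, 0.21 for Ezh1 over Ezh2 and 0.16 for Rnf2 over Ring1. The pairs and the order within each were chosen after the values were seen, so these are descriptions. The differences also depend on the probe, since second probes of Rnf2 and Rybp gave 0.10 and 0.07, and other Phc1 probes 0.09 and 0.22. An exact permutation test of 3 arrays against 3 cannot go below p = 0.1, which each pair gave, so it tells nothing apart here.

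The polyhomeotic genes, which encode the SAM-domain proteins that let PRC1 polymerise, also split. Phc2 rose from 1.94, 1.88 and 2.00 to 2.32, 2.26 and 2.40, a change of 0.39 ± 0.06 (SE), or 1.31-fold (limma adjusted p = 0.00882), and 0.38 with slide as a block (adjusted p = 0.0692). Its second probe was at background on all 6 arrays and was not tested. The mean over both probes, which takes in that background probe, gave 0.085 and did not pass. Phc1 fell from 4.71, 4.70 and 4.68 to 4.50, 4.58 and 4.53. Neither gene's groups overlapped. The Phc1 change of -0.16 ± 0.04 (SE; adjusted p = 0.0381) rests on its brightest probe, since 2 other probes gave 0.09 and 0.22, the mean over probes gave 0.05, and spike-in scaling gave 0.04. Both Phc3 probes were at background on all 6 arrays, so Phc3 has no fold.

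L3mbtl2, an MBT-domain protein of the Pcgf6 variant PRC1, read 2.38, 2.46 and 2.33 in controls and 2.74, 2.81 and 2.55 after BRG1 siRNA. The third BRG1 siRNA array lay closest to the controls, and the rise was 0.31 ± 0.08 (SE; limma adjusted p = 0.0445). Its second probe rose by 0.45 ± 0.07 (SE; adjusted p over probes = 0.0116). In 12 member probes the coordinates span more genome than the probe has bases, as in spliced RNA. Sequences are shown for 5 of them, chosen with their values known to cover the core PRC2 subunits and called members of PRC1 and the trithorax side; they are as deposited, 5′ to 3′, in mm7 coordinates, in lower case because no base is singled out. The L3mbtl2 probe spans chr15:81769814-81770637 on the plus strand, and the single Pcgf2 probe spans chr11:97800932-97801105 on the minus strand.
L3mbtl2: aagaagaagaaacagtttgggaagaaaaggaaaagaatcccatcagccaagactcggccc
Pcgf2: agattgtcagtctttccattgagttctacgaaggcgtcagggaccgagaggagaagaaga
These probes span 824 and 174 bases of genome with 60 bases of sequence.

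The Cbx proteins read methylated lysine 27 for PRC1 through a chromodomain. Cbx6 fell from 2.93, 2.89 and 2.92 to 2.68, 2.65 and 2.78, or by 0.21 on the log2 scale (SE 0.05; limma adjusted p = 0.0312), with groups apart, but median scaling gave -0.16 and spike-in scaling -0.012, neither past the threshold. Its 2 other probes gave -0.12 and 0.0029. Cbx7, the Cbx that leads in ES cells, gave 0.03 (95% interval -0.08 to 0.13), Cbx2 gave 0.09 and Cbx8 gave 0.06, none of them past the test. Cbx8 read -3.70, -3.66 and -3.77 against -3.59, -3.75 and -3.60, which overlap, and its second probe gave -0.29 (adjusted p over probes = 0.0895). By probe position Cbx2 and Cbx8 are neighbours 5.2 kb apart on chromosome 11, and Cbx6 and Cbx7 lie 89.0 kb apart on chromosome 15, so the lowered Cbx gene has a neighbour that was not called.

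Changes on the PRC2 side ran from -0.19 to 0.18, and Suz12 had the highest. Suz12, the scaffold of the complex, read 2.64, 2.70 and 2.64 in controls and 2.90, 2.85 and 2.79 after BRG1 siRNA, a rise of 0.18 ± 0.05 (SE; 95% interval 0.07 to 0.30; limma adjusted p = 0.0421). Its groups were apart, but over all probes the same probe gave a limma adjusted p of 0.0504, and with slide as a block 0.23 gave 0.0891. A second Suz12 probe gave 0.15 ± 0.11 (SE; adjusted p over probes = 0.369), with overlapping groups. Ezh2, the main methyltransferase of PRC2 in ES cells, read 3.20, 3.14 and 3.23 against 3.06, 3.12 and 3.11, and its change of -0.09 (95% interval -0.20 to 0.02; adjusted p = 0.183) was above 0 with spike-in scaling (0.10). Ezh1, its relative, read -2.38, -2.59 and -2.40 against -2.32, -2.42 and -2.30, with overlap and a change of 0.11 (95% interval -0.07 to 0.29; adjusted p = 0.327), or 0.31 with spike-in scaling (adjusted p = 0.0482). Eed, which binds the methylated lysine and activates the enzyme, gave -0.14 (adjusted p = 0.134). The Ezh2 and Eed probes of these core subunits also span gaps in the genome. They lie at chr6:47568744-47569639 and chr7:85913246-85916155, both on the minus strand.
Ezh2: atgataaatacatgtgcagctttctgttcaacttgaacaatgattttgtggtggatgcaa
Eed: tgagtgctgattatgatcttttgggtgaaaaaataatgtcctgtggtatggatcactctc
The histone-binding subunits Rbbp4 and Rbbp7 gave 0.06 (adjusted p = 0.489) and -0.19 (adjusted p = 0.0761), the latter called at -0.24 without BRG1 siRNA replicate 3 (adjusted p = 0.0355), while spike-in scaling gave 0.010 without a call. Rbbp7 groups did not overlap, at 5.58, 5.54 and 5.48 against 5.26, 5.33 and 5.44, and Rbbp4 groups did, at 4.65, 4.57 and 4.55 against 4.70, 4.70 and 4.55. The 3 other Rbbp4 probes gave 0.01, -0.06 and -0.17. The probe at -0.17 lies on the plus strand and every other Rbbp4 probe on the minus strand, so it may not read Rbbp4 mRNA.

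The accessory PRC2 subunits did not pass the test, except Jarid2 with spike-in scaling (0.28, adjusted p = 0.0392). Jarid2, which helps PRC2 bind chromatin, read 4.21, 4.09 and 4.23 against 4.20, 4.24 and 4.35, with overlap (0.09, adjusted p = 0.377), and its second probe gave -0.01. The 3 Polycomb-like proteins gave 0.02 for Mtf2, -0.06 for Phf1 and -0.16 for Phf19 (adjusted p = 0.814, 0.431 and 0.0602). Mtf2, the one most used in ES cells, read 4.60, 4.60 and 4.59 against 4.64, 4.66 and 4.54, so its groups overlapped, and its 3 other probes gave -0.08, 0.03 and 0.04. Of 18 PRC2 probes tested, 0 passed by limma over all probes, where 19.6% of all probes did, and 3 had an unadjusted p under 0.05 (Suz12, Phf19 and Rbbp7).

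On the trithorax side, Mll3 (Kmt2c), a methyltransferase that marks enhancers, had the largest change. It read 1.17, 1.18 and 1.18 in controls and 1.48, 1.49 and 1.56 after BRG1 siRNA. The control arrays differ by little and every BRG1 siRNA array lies above them, a rise of 0.34 ± 0.04 (SE), or 1.26-fold (limma adjusted p = 0.00477), and 0.31 with slide as a block (adjusted p = 0.0493). Of 5 Mll3 probes tested, 4 rose, by 0.30, 0.34, 0.37 and 0.51, and the other gave 0.58 (SE 0.19; adjusted p over probes = 0.0914). One of the raised Mll3 probes crosses gaps at chr5:24390397-24391567, minus strand.
Mll3: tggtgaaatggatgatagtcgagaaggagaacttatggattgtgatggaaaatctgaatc
Mll1 (Kmt2a), a methyltransferase of Hox gene promoters, went from 0.38, 0.41 and 0.49 to 0.60, 0.65 and 0.66, with groups apart and a rise of 0.21 ± 0.05 (SE; limma adjusted p = 0.0258; slide as a block 0.18, adjusted p = 0.158). Mll5 (Kmt2e), a SET-domain relative, went from 0.32, 0.32 and 0.38 to 0.04, -0.03 and 0.06. It fell by 0.32 on the log2 scale (SE 0.04; adjusted p = 0.00721) with groups apart, while it missed the threshold at -0.27 with median scaling, at -0.12 with spike-in scaling and with slide as a block at -0.31 (adjusted p = 0.0641). Its second tested probe gave -0.21 (adjusted p over probes = 0.159).

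**Figure D3:**
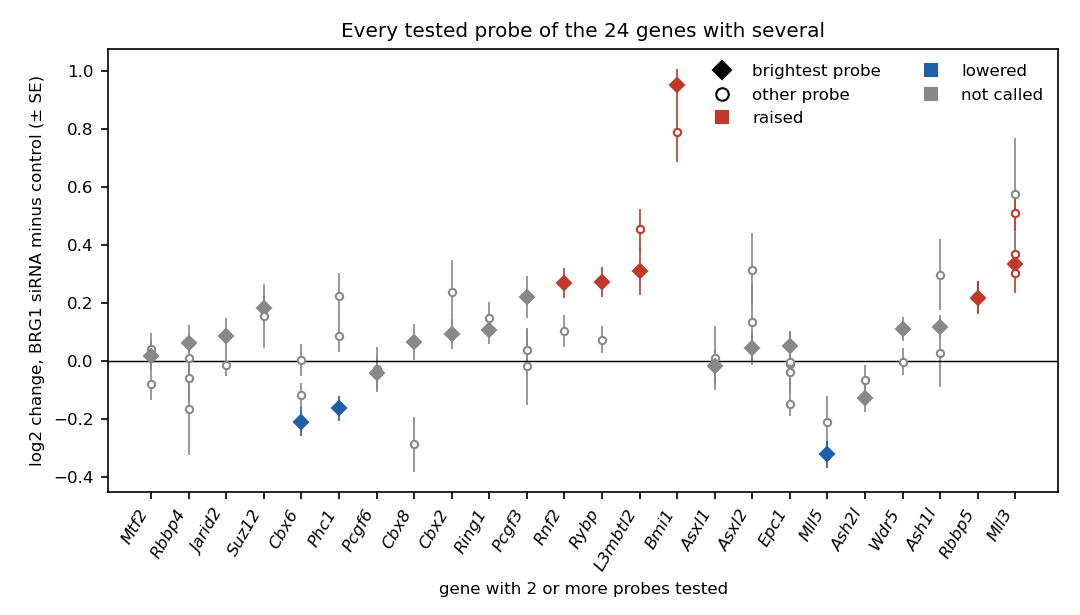
Change of every tested probe (log2, ± SE) for the 24 members with 2 or more, with diamonds for the brightest probe, open circles for the others, and colour for the call over all probes. The 5 Mll3 probes all lie above 0 and both Bmi1 probes are near the top, while the 3 Phc1 probes lie on both sides of 0; with spike-in scaling the brightest Phc1 probe is above 0.

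In the shared core, Rbbp5, a subunit that activates the MLL enzymes, rose from 2.25, 2.40 and 2.32 to 2.58, 2.55 and 2.48, by 0.22 ± 0.06 (SE; limma adjusted p = 0.0408), and its second probe rose by 0.22 as well (adjusted p over probes = 0.0438). The groups were apart. Wdr5, the subunit that holds the core together, read 3.76, 3.77 and 3.83 against 3.90, 3.88 and 3.90, also apart, for 0.11 (adjusted p = 0.0997), and a second probe gave -0.0020. Quantile normalization called it raised, at 0.17 (adjusted p = 0.0297), or 0.22 with normexp as well (adjusted p = 0.0182). Ash2l gave -0.13 (adjusted p = 0.0918) and Men1, the menin that joins Mll1 and Mll2 complexes, gave 0.10 (adjusted p = 0.288). Ash1l, a methyltransferase of lysine 36, read -3.09, -3.13 and -3.13 against -3.00, -2.96 and -3.03, for 0.12 (adjusted p = 0.0898), or 0.32 with spike-in scaling (adjusted p = 0.0476). All 8 trithorax genes had groups that did not overlap, as did 44% of all genes tested and 26 of 39 members. The remaining members, Asxl1, Asxl2 and Epc1, gave -0.02, 0.04 and 0.05 with overlapping groups, and Asxl2 was called at 0.16 with the mean over probes (adjusted p = 0.0488). Asxl1, a partner of the H2A deubiquitinase Bap1, read 2.37, 2.32 and 2.32 against 2.23, 2.31 and 2.41. Epc1, a subunit of a histone acetyltransferase complex, read 1.22, 1.16 and 1.18 against 1.30, 1.24 and 1.16.

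Probes of 1 gene share its RNA, apart from the Rbbp4 probe on the opposite strand, and are not replicates. Of 87 member probes 79 were tested, 17 rose and 4 fell, beside 19.6% of all probes called (8.6% raised and 11% lowered); 6 were at background on all arrays. By side, 0 of 18 PRC2 probes, 10 raised and 3 lowered of 32 PRC1 probes, and 7 raised and 1 lowered of 18 trithorax probes were called. Of the 24 members with 2 or more tested probes, 10 had probes of different sign, and 0 had probes called in opposite directions. All probes were called for Bmi1, L3mbtl2 and Rbbp5.

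**Figure D4:**
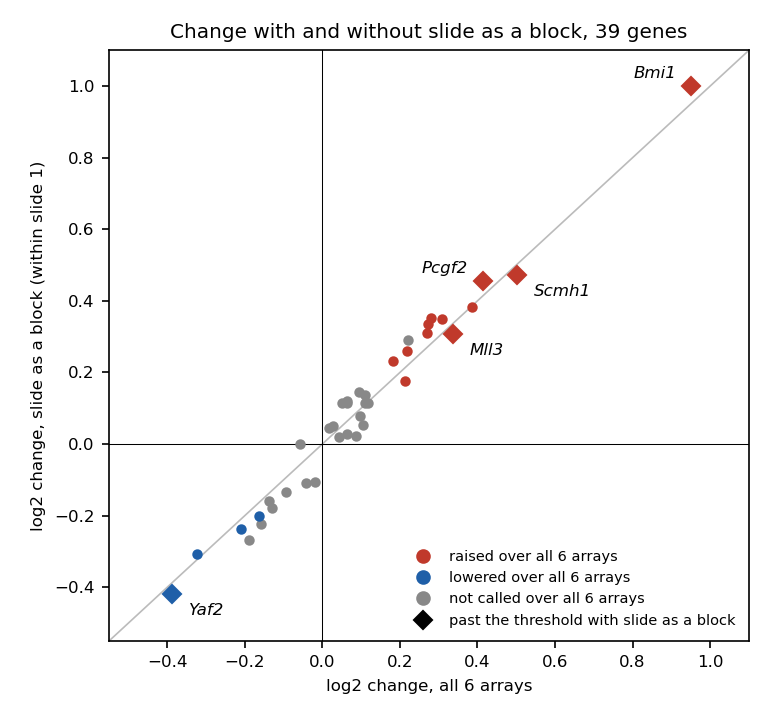
Log2 change over all 6 arrays (x axis) against the change with slide as a block, which equals BRG1 siRNA replicate 1 minus the 3 controls of slide 1 (y axis), for the 39 members, with diamonds for those past the threshold in the blocked fit and a grey line of equality. Bmi1, Scmh1, Pcgf2 and Mll3 (raised) and Yaf2 (lowered) are the 5 diamonds, and most members lie near the line. The arrays behind the y axis also enter the x axis, so closeness to the line is no further support.

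Other genes of the same pathways were read from a list of 51 found on the array, of which 48 were tested. Of these 6 rose and 7 fell (27.1%), near the 23.3% of all genes, and with spike-in scaling 13 rose and 0 fell (19 and 2 at an unadjusted p under 0.05). The largest rises were Setd1b, the trithorax-side methyltransferase of Set1 complexes (0.53, limma adjusted p = 0.00998), Kdm6b, a lysine 27 demethylase listed as Jmjd3 (0.34, adjusted p = 0.0392), Epop, a PRC2 partner listed as E130012A19Rik (0.32, adjusted p = 0.0212), and Kdm2b, the CpG-binding subunit of the Pcgf1 complex listed as Fbxl10 (0.31, adjusted p = 0.0109). The largest falls were Psip1, which tethers Mll1 complexes (-0.46, adjusted p = 0.00224), Bcor and Bcorl1, the scaffolds of the Pcgf1 complex (-0.42 and -0.31, adjusted p = 0.0032 and 0.0427), and Foxk2, a DNA-binding partner of Bap1 (-0.32, adjusted p = 0.013), which stayed below 0 but did not pass with spike-in scaling (-0.26, -0.22, -0.11 and -0.12). The trithorax genes under older names, Dpy30, Kmt2b and Kmt2d (listed as 2810410M20Rik, Wbp7 and C430014K11Rik), fell outside the rule on names, and 0 of the 3 were called, also at an unadjusted p under 0.05.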

How the data were processed

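The 6 arrays were assigned to groups from the sample labels. Per the file headers, the authors' deposited spot intensity was made with Agilent Feature Extraction 9.5.3.1 (9.5 per the submitters' processing notes) on array design 014868, with the processed signal already background-subtracted. The deposited value table equals that signal, with a largest difference of 0.

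From it, log2 minus the 75th percentile of each array's non-control spots was computed, without control spots and spots marked as outliers. Genes entered the test if the brightest probe stood well above background on all arrays of 1 group or both, as did 39 of 40 members. Groups were compared with limma 3.58.1 (R 4.3.3; two-sided, Benjamini-Hochberg threshold 0.05 over all 17758 genes or all 26260 probes), checked on simulated data. The members and lists were chosen with earlier results of these data known. Members called, catalytic subunits and members with probes of different sign are named with values, the rest by change, and of other pathway genes up to 4 a direction. Alternatives were other scalings, background correction, filters, slide blocks, the replicate block, the mean over probes, the value table and each array left out. Same-numbered arrays of the 2 groups gave correlations of -0.31, 0.11 and -0.02, and differently numbered arrays gave -0.34 to 0.34. These values show no pairing by number, but 3 arrays a group cannot exclude one. Arrays of a group differed by an SD of 0.232 to 0.320 (log2), and 3 arrays a group limit the precision.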

Additional observations from a re-analysis of the deposited data

How the results depend on the processing

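Bmi1, Scmh1, Pcgf2 and Mll3 kept their call in 17 of 18 alternatives and lost it with slide 1 alone, which has 1 BRG1 siRNA array, called 59 of 18470 genes in all and says nothing about stability. Yaf2 and Phc2 kept theirs in 15, Mll5 in 13 and the other called members in 3 to 8. The value table, equal to the main signal, and slide as a random block, at a correlation of -0.0006, all but repeat the main fit. The filter to genes above background on all 6 arrays left out no tested member. Phc1 kept its call in these 3 settings alone. With 75th percentile scaling, counts stood at 1 (PRC2), 11 (PRC1), 0 (other Polycomb-associated), 4 (trithorax), 16 (all members), 21 (member probes) and 13 (other pathway genes). Named in the order PRC2, PRC1, trithorax, all members, member probes and other pathway genes, median scaling gave 0, 4, 1, 5, 7 and 3, no filter on dim probes gave 0, 5, 2, 7, 10 and 4, slide as a fixed block gave 0, 4, 1, 5, 4 and 5, and slide 1 alone gave 0 for each. The mean over probes gave 0, 7, 2 and 10 genes for the first 4 of these, 6 other pathway genes and 1 other Polycomb-associated gene, and spike-in scaling gave 3 PRC2 genes. Of all genes, 23.3% were called in the main fit and 9.76% with median scaling. The share was 6.22% with no filter, 7.84% with slide as a fixed block, 14.5% with the mean over probes and 22.5% with spike-in scaling. Leaving out 1 array at a time gave 0 to 2 PRC2 genes, 5 to 11 PRC1 genes, 2 to 3 trithorax genes, 7 to 16 members, 8 to 26 member probes and 2 to 14 other pathway genes. In those fits 9.19% to 24.8% of all genes were called. The value table, slide as a random block and the filter to genes above background on all 6 arrays kept all 16 calls, and both quantile settings kept 15 and gained Wdr5. Smarca4 gave -0.54 with slide 1 alone, past no threshold. Why counts differ between settings was not tested.

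No pairing of samples by replicate number was shown. With the replicate block 0 PRC2, 5 PRC1 and 2 trithorax genes, 7 members, 11 member probes and 5 other pathway genes were called, beside 11% of all genes.

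Changes of these members turned sign. With spike-in scaling the values were Ash2l 0.069, Asxl1 0.18, Eed 0.060, Ezh2 0.10, Pcgf6 0.16, Phc1 0.035, Phf1 0.14, Phf19 0.039 and Rbbp7 0.010. With median scaling Asxl1 gave 0.034 and Pcgf6 0.011, and with normexp and quantile normalization Asxl1 gave 0.0079 and Cbx7 -0.0032. With slide as a block and with slide 1 alone Phf1 gave 0.00048. With the mean over probes Cbx8 gave -0.11, Epc1 -0.030, Jarid2 -0.10, Phc1 0.049 and Rbbp4 -0.038. The Jarid2 mean takes in a probe that was well above background on 1 array of each group. The Rbbp4 mean takes in a probe on the strand opposite to its other probes. Leaving out 1 array at a time gave Asxl1 -0.065 to 0.025, Mtf2 -0.0043 to 0.054 and Asxl2 -0.0026 to 0.078. Of these, Phc1 alone had been called.

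Signal over background limits Phc3, with both probes at background on all 6 arrays.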
